A study of Mus musculus with 4 samples.

Results

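The genes described here encode the constitutive proteasome, its activators and its assembly factors, in a mouse Th1 T cell clone with and without anergy. They were taken as all genes whose single symbol in the platform's probe annotation begins with Psm, a letter from a to g and a number. Psmb8, Psmb9, Psmb10, Psme1 and Psme2, the interferon-induced forms, were left out. The rule found 42 genes with 53 probe sets, out of 8251 named genes on the array, and each gene was represented by its brightest probe set. Of the 42 genes, 2 share only the symbol's start. Psmc3ip encodes a meiotic recombination factor named as a partner of Psmc3, and Psme3ip1 encodes a partner of the activator Psme3. Expression was measured on 4 arrays. The anergic group (arrays 1 and 2) is a Th1 clone made unresponsive by antibody against CD3 fixed to plastic. The control group (arrays 1 and 2) is the normal clone at rest. Both groups are cloned T cells in culture, so they stand for a single kind of helper T cell, and strain, antigen, age and time after treatment are not given in the labels used here. The labels do not tell separate cultures from repeats of one culture, so p-values rest on a spread that may be partly technical.

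The proteasome is the protease that degrades proteins tagged with ubiquitin. Its barrel-shaped core has outer rings of alpha subunits, which gate the entrance, and inner rings of beta subunits, which hold the cutting sites. A regulatory cap binds the ubiquitin tag, removes it and feeds the unfolded protein into the core through a ring of ATPases. In T cells the proteasome makes peptides for MHC class I and degrades regulators such as the inhibitors of NF-kB.

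The arrays had been scaled alike before deposit, with trimmed means between 500.28 and 500.31. The 8 of 9 T cell markers with a named probe set lay between 262.5 (Cd247) and 13440 (Thy1). They summed to 44979 and 39546 on the anergic arrays, and to 53129 and 40514 on the control arrays. Cd8a and Cd8b1, the genes of the CD8 coreceptor, stayed between 6.2 and 21.9. The 4 measured B cell markers lay between 24.7 and 237.3. The 6 markers of macrophages and dendritic cells summed to 1441 and 1913 on the anergic arrays, and to 1203 and 1496 on the control arrays. Among them Cd68 was at 497.6 and 531.5 in anergic cells, against 71 and 91.3 in control cells. Lyz2 was the other way, at 11.7 and 11.4 in anergic cells, against 129.1 and 73.3 in control cells. These 2 markers separated by group in opposite directions. Adgre1, below the filter on low values as Lyz2 was, separated like Cd68, at 36.4 and 36.9 in anergic cells, against 24 and 20.2 in control cells. Among the T cell markers Cd3d, Cd4 and Cd247 were higher on both anergic arrays than on both control arrays, and Thy1 was lower. Of all genes tested, 41.3% separated by group. The 2 measured erythroid markers lay between 13.3 and 359.3, and the 4 of fibroblasts and stroma between 11.7 and 1584, the highest being Col1a2. Cd79b, Col3a1 and Dcn, all below the filter, also separated by group. Cd79b and Col3a1 were lower and Dcn was higher in anergic cells. The part of these markers in the values below was not tested.

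No proteasome gene passed the test between anergic and control cells. Of the 42 genes, 39 passed a filter on low values. Of these, 0 were called higher and 0 lower by limma after Benjamini-Hochberg adjustment over all 5583 genes tested, at a threshold of 0.05. Among all genes tested, 1.33% were called higher and 0.842% lower, 2.17% together. With each array centred on its median the 74 higher and 47 lower calls over all genes became 47 and 13. At an unadjusted p under 0.05 stood 1 of the 39 (Psmg2), against 12.7% of all genes. The lowest adjusted p among the 39 was 0.247 (limma).

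The differences were also small, and 0 of the 39 exceeded 2-fold, against 6.07% of all genes tested. Log2 differences of the 39 genes, anergic minus control, ran from -0.85 to 0.27, with a median of -0.060 and an SD over genes of 0.24. Over all genes tested the median was -0.085 and the SD 0.57. The median absolute difference was 0.12 for the proteasome genes and 0.28 for all genes. By sign 15 were higher and 24 lower in anergic cells (58.1% of all genes were lower), but centring each array turned this to 24 higher and 15 lower. Centring moved the median of the proteasome genes to 0.047 and that of all genes to 0.021, so the median gives no direction. Their distance from the median of all genes was 0.025, which centring cannot change, as it shifts all genes alike. With quantile normalization this distance was -0.032. It was larger and of either sign when single arrays were left out, at -0.14 without anergic array 1, 0.15 without anergic array 2, 0.15 without control array 1 and -0.14 without control array 2.

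**Figure D1:**
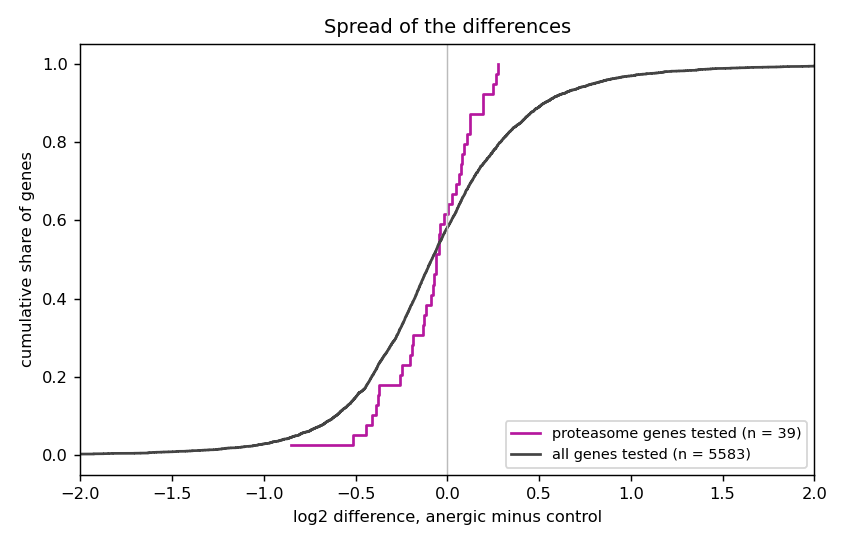
Cumulative share of genes (y axis, from 0 to 1) by log2 difference, anergic minus control (x axis, cropped at 2 on either side), for the 39 proteasome genes tested (magenta) and all 5583 genes tested (grey). The proteasome genes rise steeply between -0.85 and 0.27 around a median of -0.060, while all genes spread wider, with an SD of 0.57.

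A difference that misses the threshold does not show equal levels, so the 95% intervals of the fit were read as well. For 32 of the 39 genes the whole interval lay within a 2-fold change in either direction, which held for 41.6% of all genes tested. The median SE was 0.27 for the proteasome genes and 0.32 for all genes, so their intervals were also narrower. The proteasome genes were brighter, with a median intensity of 1177 in anergic and 1133 in control cells, against 501.8 and 535.9 for all genes. Between arrays of a group their median absolute log2 difference was 0.24 in anergic and 0.25 in control cells. For all genes it was 0.33 and 0.37. The part of brightness in their smaller differences and narrower intervals was not tested. The tightest interval was that of the alpha subunit gene Psma6, from -0.52 to 0.43. The intervals of the other 7 genes (Psma1, Psmc1, Psmd12, Psme3, Psmg1, Psmg2 and Psmg3) reached past 2-fold on at least one side. Because each array carries bulk RNA scaled to a common mean, fewer cells with a transcript and less transcript per cell cannot be told apart.

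**Figure D2:**
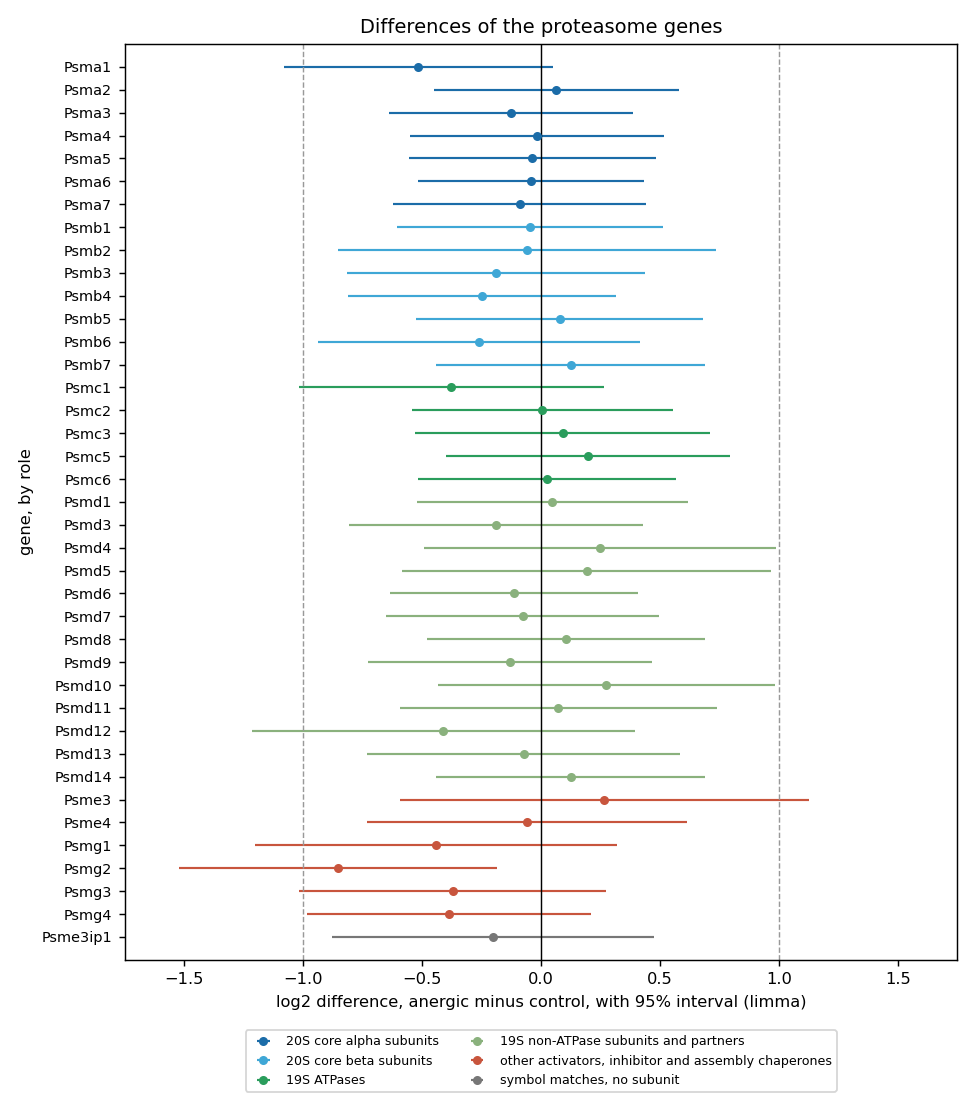
Log2 difference, anergic minus control (x axis), of each of the 39 proteasome genes tested (y axis), with its 95% interval from limma and coloured by role; dashed lines mark a 2-fold change. The interval of Psmg2 is the one that leaves out 0 (-1.52 to -0.18), and 32 intervals stay between the dashed lines.

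In the alpha ring 7 genes were measured, and 0 passed the test in either direction. Psma1 lay lowest. It had intensities of 754.8 and 822.8 on the anergic arrays, against 1113 and 1167 on the control arrays. Both anergic arrays were below both control arrays, and arrays of a group were close to each other. The log2 difference was -0.52 ± 0.25 (SE, adjusted p = 0.455, limma), with an interval from -1.08 to 0.050. The other 6 alpha subunit genes, Psma2 to Psma7, ran from -0.13 to 0.063. Psma6 was nearly flat, at 7398 and 7080 on the anergic arrays and 7481 and 7434 on the control arrays. Psma4 averaged 2486 ± 440 in anergic cells and 2496 ± 9.33 in control cells (SD, n = 2 each).

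For each beta ring gene, the arrays of at least one group differed by more than the groups did. All 7 genes were measured, 0 passed and 0 had groups that did not overlap. Psmb5, Psmb6 and Psmb7 encode the subunits with the cutting sites. Psmb5, which encodes the chymotrypsin-like subunit and the target of bortezomib, had intensities of 2381 and 1718 on the anergic arrays and of 2222 and 1651 on the control arrays. In both groups array 1 was the higher, and the log2 difference was 0.078 ± 0.27 (SE, adjusted p = 0.956, limma). Its dimmer probe set stood at -0.11, and the difference was -0.15 without anergic array 1 and -0.13 without control array 2. Psmb6, which encodes the caspase-like subunit, was at 488.1 and 453.8 on the anergic arrays, against 681.4 and 475.5 on the control arrays. Only control array 1 stood above the others, and the log2 difference was -0.26 ± 0.30 (SE, adjusted p = 0.843, limma). It was -0.014 without that array and -0.51 without control array 2. Psmb7, which encodes the trypsin-like subunit, averaged 1407 ± 181 in anergic cells and 1289 ± 156 in control cells (SD, n = 2 each).

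The other beta subunits have no cutting site of their own. Psmb4 was at 3297 and 2969 on the anergic arrays, against 4470 and 3096 on the control arrays. Here too control array 1 was the high one. The log2 difference of -0.25 ± 0.25 (SE, adjusted p = 0.803, limma) was 0.015 without that array and -0.51 without control array 2. Psmb3 had the same high array, with 3184 and 3061 on the anergic arrays and 4651 and 2726 on the control arrays. Psmb2 was at 1636 and 867.5 on the anergic arrays and at 1603 and 964.7 on the control arrays, so that array 1 was far above array 2 in either group. Psmb1 stood at -0.046.

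**Figure D3:**
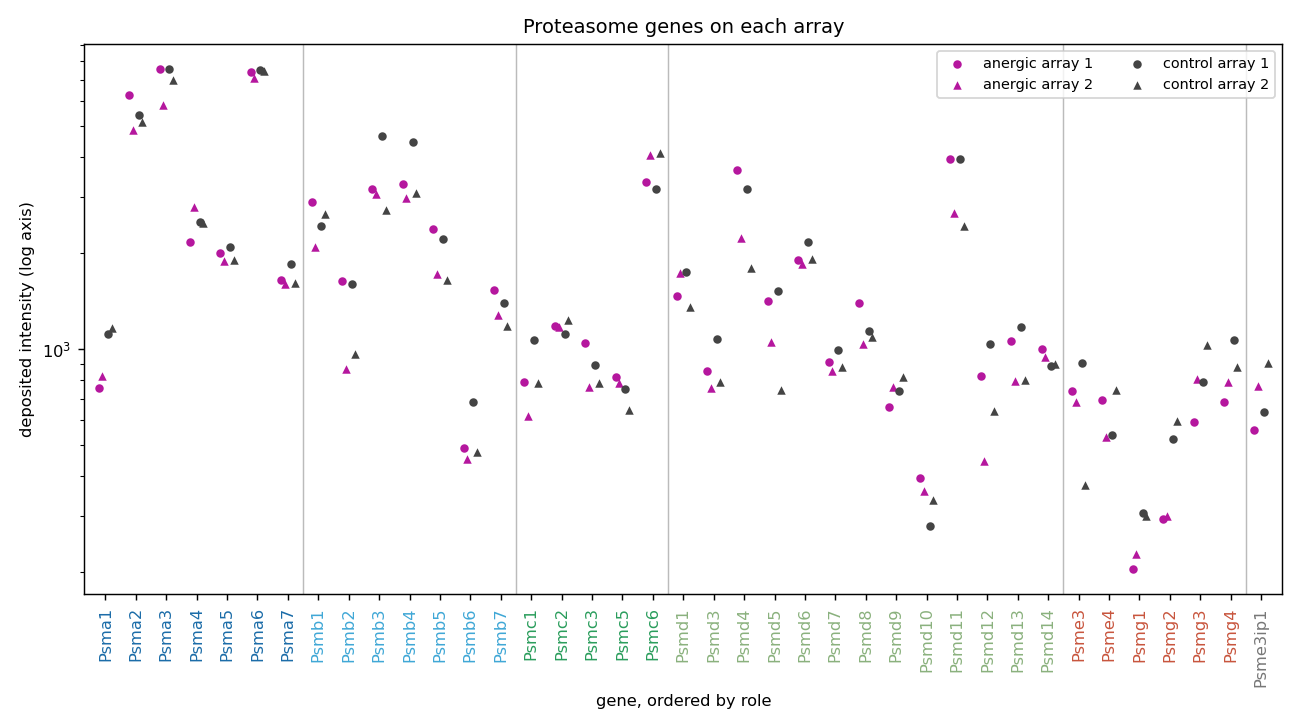
Deposited intensity on a log axis (y axis) of each of the 39 proteasome genes tested (x axis, coloured and divided by role) on the 4 arrays, anergic in magenta and control in grey, array 1 as circles and array 2 as triangles. Circles and triangles separate for many beta subunit and cap genes, such as Psmb2, Psmd11 and Psmd4, while the colours separate for 9 genes, among them Psma1 and Psmg2.

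The ring of ATPases in the cap is encoded by Psmc1 to Psmc6. Psmc4 was below the filter, with intensities of 63 and 74.4 on the anergic arrays and 73.6 and 74.1 on the control arrays. The other 5 gave a median log2 difference of 0.025, and 0 passed. Psmc1 had intensities of 786.4 and 618 on the anergic arrays, against 1066 and 784.4 on the control arrays. The groups overlapped by the small margin between the anergic array 1 and control array 2 values, and the log2 difference was -0.38 ± 0.29 (SE, adjusted p = 0.691, limma). It ran from -0.59 without control array 2 to -0.16 without control array 1. Psmc5 was at 816.4 and 784.4 on the anergic arrays and at 750.5 and 642.7 on the control arrays. Its groups did not overlap, with a log2 difference of 0.20 ± 0.27 (SE, adjusted p = 0.874, limma). It ran from 0.089 without control array 2 to 0.30 without control array 1. A second probe set of Psmc5, below the filter, stood at -0.86. It was at 28.2 and 13.9 on the anergic arrays and at 65.3 and 56.9 on the control arrays. Psmc3 was at 1048 and 760.8 on the anergic arrays and at 891 and 785.7 on the control arrays. The control values lay inside the range of the anergic ones. The log2 difference was 0.091 ± 0.28 (SE, adjusted p = 0.947, limma). It ran from -0.13 without anergic array 1 to 0.31 without anergic array 2. The other probe sets of Psmc3 were at -0.061 and -0.086. Psmc2 averaged 1177 ± 5.37 in anergic cells and 1174 ± 80.3 in control cells, and Psmc6 averaged 3700 ± 518 and 3648 ± 659 (SD, n = 2 each).

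The Psmd genes encode the rest of the cap and several of its partners. Of the 14, Psmd2, which encodes a scaffold subunit, was below the filter at 21.1 and 44.5 on the anergic arrays and at 11.7 and 28.4 on the control arrays. The other 13 had a median log2 difference of 0.046, with 7 higher and 6 lower by sign and 0 called. Psmd4, which encodes a receptor for ubiquitin chains, was at 3639 and 2225 on the anergic arrays and at 3184 and 1799 on the control arrays. Again array 1 was the higher in both groups. The log2 difference of 0.25 ± 0.33 (SE, adjusted p = 0.873, limma) was -0.10 without anergic array 1 and -0.16 without control array 2. It was 0.60 without anergic array 2 and 0.65 without control array 1. Psmd14, which encodes the enzyme that cuts the ubiquitin chain off the substrate, averaged 973 ± 42.2 in anergic cells and 890 ± 9.48 in control cells (SD, n = 2 each). Its groups did not overlap, and its log2 difference was 0.12 (adjusted p = 0.913, limma).

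Psmd12 belongs to the lid of the cap. It was at 824.7 and 444.8 on the anergic arrays, against 1036 and 642.1 on the control arrays. Array 1 was the higher in both groups, and the groups overlapped. The log2 difference was -0.41 ± 0.36 (SE, adjusted p = 0.744, limma). It ran from -0.84 without anergic array 1 to 0.014 without anergic array 2. The lid genes Psmd3, Psmd6, Psmd7, Psmd8, Psmd11 and Psmd13 ran from -0.19 to 0.10. Psmd11 had a wide spread, with 3956 and 2682 on the anergic arrays and 3939 and 2433 on the control arrays. Psmd5, Psmd9 and Psmd10 encode chaperones that help the ATPase ring form and leave the finished particle. Psmd10, also known as gankyrin, was at 395.6 and 359.1 on the anergic arrays and at 278.6 and 337.4 on the control arrays. Both anergic arrays were above both control arrays, with a log2 difference of 0.27 ± 0.32 (SE, adjusted p = 0.843, limma). It ran from 0.15 without control array 1 to 0.40 without control array 2. Psmd5 and Psmd9 were at 0.19 and -0.13. The intensities of Psmd5 were 1416 and 1055 on the anergic arrays and 1521 and 745.9 on the control arrays. The scaffold subunit gene Psmd1 was at 0.046.

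The assembly chaperones of the alpha ring had negative log2 differences without passing the test. Psmg1 and Psmg2 act as a pair, as do Psmg3 and Psmg4, and all 4 help alpha subunits join into a ring. Psmg2 had intensities of 292.6 and 299 on the anergic arrays, against 523.9 and 593.2 on the control arrays. The anergic arrays were close to each other and well below both control arrays. The log2 difference was -0.85 ± 0.30 (SE, adjusted p = 0.247, limma), which is lower in 2 of 2 anergic arrays, and it stayed between -0.94 and -0.77 when each array was left out in turn.

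Its partner Psmg1 was at 203.9 and 227.1 on the anergic arrays, against 306.8 and 298.7 on the control arrays. These groups did not overlap either, with a log2 difference of -0.44 ± 0.34 (SE, adjusted p = 0.696, limma). Psmg4 was at 681.5 and 789 on the anergic arrays and at 1066 and 878.6 on the control arrays. Its anergic arrays were both below its control arrays, and the log2 difference was -0.39 ± 0.27 (SE, adjusted p = 0.645, limma). Psmg3 was at 591.5 and 804.3 on the anergic arrays and at 789.9 and 1027 on the control arrays. There the groups overlapped, the log2 difference was -0.37 ± 0.29 (SE, adjusted p = 0.699, limma), and a dimmer probe set stood at 0.21. Its difference was -0.081 with the mean of both probe sets, and ran from -0.58 without anergic array 2 to -0.16 without anergic array 1. For Psmg4 the same range was -0.52 to -0.25, the smallest size being without control array 1. The median of the 4 genes was -0.41, against -0.085 over all genes tested. It was -0.31 with each array centred on its median, -0.35 with quantile normalization and -0.36 with cyclic loess normalization, and all 4 were negative each time. That these 4 be read together was decided after their values were seen, and the alternatives used the same arrays. The role group of 6 that also holds Psme3 and Psme4 had a median of -0.38. By sign 58.1% of all genes tested were lower. Of the chaperones of the ATPase ring, Psmd5 and Psmd10 were higher by sign and Psmd9 was lower. The sign of Psmd5 was not steady, with a range from -0.31 to 0.69 over the alternatives.

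Alternative activators can replace the cap on the core. Psme3, which encodes the nuclear activator PA28 gamma, averaged 711 ± 38.3 in anergic cells and 641 ± 376 in control cells (SD, n = 2 each). Its control arrays were at 907 and 375.9, on either side of both anergic arrays. Psme4, which encodes the activator PA200, was at 691.3 and 529.3 on the anergic arrays and at 536.7 and 744.1 on the control arrays. Of the 2 genes that only share the symbol, Psme3ip1 stood at -0.20 and Psmc3ip was below the filter, at no more than 13 on any array.

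In all, the 4 arrays separated by group in 9 of the 39 genes. The anergic arrays were both higher for 3 genes (Psmc5, Psmd10 and Psmd14) and both lower for 6 (Psma1, Psma6, Psmd6, Psmg1, Psmg2 and Psmg4). Among all genes tested 41.3% did not overlap, with 17.3% higher and 24% lower in anergic cells. In 33 of the 39 genes (84.6%) at least one group's arrays differed from each other by more than the groups did, against 69.6% of all genes.

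The arrays of the same number resembled each other across groups. Anergic array 2 was below anergic array 1 for 29 of 39 proteasome genes, and control array 2 was below control array 1 for 28. For 24 genes both were so (61.5%), against 27.4% of all genes tested. The median log2 difference of array 2 from array 1 was -0.099 in anergic and -0.18 in control cells for the proteasome genes, but 0.094 and 0.10 for all genes. For the beta subunit genes it was -0.26 in anergic and -0.49 in control cells. Comparisons within a number gave a median of -0.12 for anergic array 1 against control array 1 and of -0.059 for anergic array 2 against control array 2. Over all genes these were -0.10 and -0.060. Of the 39 genes, 18 were lower and 7 higher in anergic cells within both numbers, and the other 14 changed sign. The sign was thus kept in 64.1% of them, against 67.8% of all genes tested. What the number stands for is not given in the labels. A fit with the number as a block is among the alternatives given further below, and it gave more calls, Psmg2 among them.

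**Figure D4:**
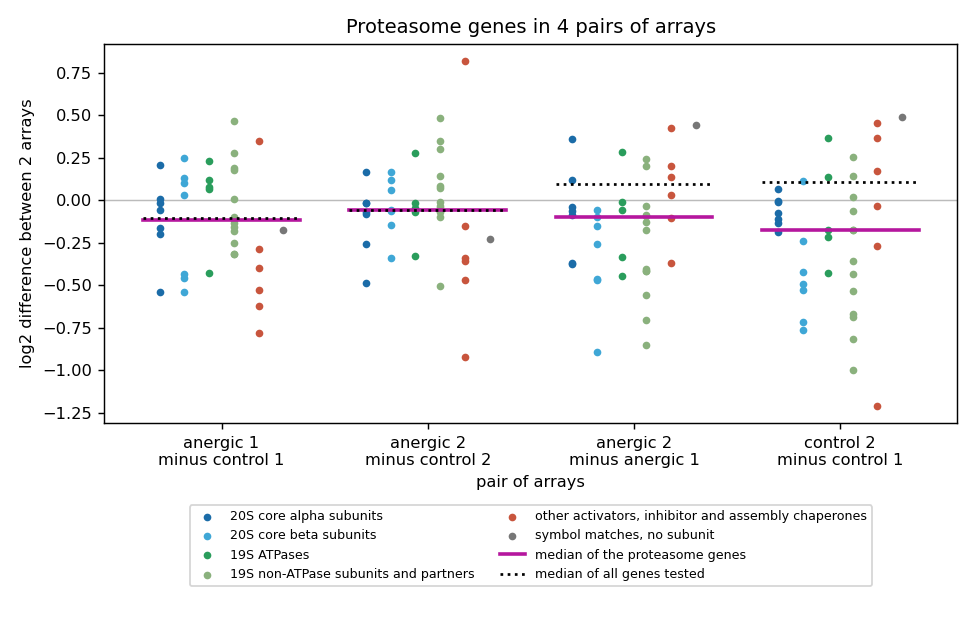
Log2 difference between 2 arrays (y axis) for 4 pairs of arrays (x axis), with each of the 39 proteasome genes as a point coloured by role, their median as a magenta line and the median of all genes tested as a dotted line. In the left-hand pairs, anergic against control, both medians lie together (-0.12 and -0.10, then -0.059 and -0.060), while between arrays of a group the proteasome genes lie below all genes (-0.099 and 0.094 in anergic cells, -0.18 and 0.10 in control cells).

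The probe sets used limit some of these values. Of the 39, 8 carry an f, r or s in their name, by which the manufacturer marks sets whose probes may also bind related transcripts or were chosen under relaxed rules. They are those of Psma3, Psmb4, Psmb5, Psmb7, Psmc3, Psmd9, Psmd12 and Psmg3. These 8 genes had a median of -0.13, and the 31 genes without such a mark had a median of -0.046.

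Interferon-induced subunits can replace the constitutive cutting subunits, and 4 of these 5 related genes were measured, with 0 called. Psmb8 averaged 7460 ± 868 in anergic cells and 10124 ± 81.0 in control cells (SD, n = 2 each). It differed by -0.44 ± 0.22 on the log2 scale (SE, adjusted p = 0.452, limma). Psme1, which encodes a subunit of the activator PA28, was also at -0.44 (adjusted p = 0.482, limma). Both had groups that did not overlap, with the anergic arrays lower. Psmb9 (0.16) did not overlap either, with the anergic arrays higher, which makes 3 of 4, against 41.3% of all genes tested. Psmb10 was at 0.051, and Psme2 had no probe set of its own symbol.

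Among 10 partners of the proteasome with other symbols, 8 were measured and 0 passed. Usp14, which encodes a deubiquitinating enzyme bound to the cap, had intensities of 737.9 and 726.3 on the anergic arrays, against 332.2 and 364.6 on the control arrays. Both anergic arrays were far above the control arrays. Its log2 difference of 1.01 ± 0.28 (SE, adjusted p = 0.127, limma) was larger than that of any of the 39 genes. Pomp, which encodes the chaperone of the beta ring, was at 2840 and 3018 on the anergic arrays and at 1751 and 2493 on the control arrays. Those groups did not overlap either (log2 difference 0.48 ± 0.25, SE, adjusted p = 0.501, limma). The third gene of this list without overlap was Sem1, which encodes a small cap subunit, at 4616 and 4419 on the anergic arrays and 4957 and 4881 on the control arrays (log2 difference -0.12). These are 3 of 8, again against 41.3% of all genes. Of 15 genes for ubiquitin, its activation and its shuttles 5 were measured and 0 passed, with Ubqln1 at 0.32 and Ubqln2 at 0.24.

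Of 12 regulators of proteasome gene transcription, 8 passed the filter and 0 were called. Nfe2l1 encodes the transcription factor that raises proteasome genes when the proteasome is short of capacity, through antioxidant response elements in their promoters. It had intensities of 1503 and 1517 on the anergic arrays, against 821.4 and 900 on the control arrays. The groups were far apart and each was tight, with a log2 difference of 0.79 ± 0.25 (SE, adjusted p = 0.182, limma). Nfyc, a subunit gene of the CCAAT-binding factor NF-Y, was at 994.2 and 1041 on the anergic arrays, against 1687 and 1278 on the control arrays (log2 difference -0.52 ± 0.26, SE, adjusted p = 0.473, limma). Only these 2 of the 8 had groups that did not overlap, against 41.3% of all genes tested. The 8 had a median log2 difference of -0.13, with 3 higher and 5 lower by sign. Nfe2l2 and Keap1 were below the filter.

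Promoters bearing the core of that element were looked up beside the values of Nfe2l1. RefSeq promoters of GRCm38.p6 were at hand for 35 of the 42 genes, and the 250 bases before each start were searched on both strands. The core TGACNNNGC was found for 5 genes (14.3%), against 11.5% of 27025 genes with a promoter in the table. CCAAT was found for 14 (40%), against 37.5%, and these 14 hold Psmc3ip and Psme3ip1, which encode no subunit. The 5 stretches are shown on the gene's strand, with the core in capitals, read on the opposite strand for Psmc6 and Psmd12.
Psmb5, chr14:54618009-54618067, minus strand: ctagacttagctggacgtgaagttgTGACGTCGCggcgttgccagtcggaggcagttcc
Psmb6, chr11:70525323-70525356, plus strand: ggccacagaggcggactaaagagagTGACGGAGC
Psmd9, chr5:123228134-123228189, plus strand: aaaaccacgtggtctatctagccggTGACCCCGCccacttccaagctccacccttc
Psmc6, chr14:45329574-45329630, plus strand: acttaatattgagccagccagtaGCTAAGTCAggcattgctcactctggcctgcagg
Psmd12, chr11:107479278-107479314, plus strand: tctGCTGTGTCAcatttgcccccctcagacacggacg
A match describes letters in this window and not a bound site. The core begins 47 bases before the start in Psmb5, 31 in Psmd9 and 9 in Psmb6. Log2 differences of the 5 genes ran from -0.41 (Psmd12) to 0.078 (Psmb5) with a median of -0.13. The 27 tested genes whose promoter lacked the core had a median of -0.043, and this contrast was not tested. When single arrays were left out, Psmd12 ran from -0.84 to 0.014 and Psmb6 from -0.51 to -0.014.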

How the data were processed

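Each array gave 1 intensity for each of 12488 probe sets. The authors deposited linear intensities, already scaled, as the values show. The sources used here do not give the scanner software, background correction or probe summary. Array number limits the precision, at 2 arrays per group. Biotinylated cRNA was made from Trizol-extracted RNA, per the labels' protocols.

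The 66 control probe sets were left out. Intensities were taken as log2(value + 29.15), the median of the arrays' 20th percentiles, so that fold changes of dim genes are understated. Probe sets above the 40th percentile of mean log2 value were kept (7453), and the probe set with the highest mean log2 value stood for its gene (5583 genes). The fit used limma 3.58.1 under R 4.3.3 (eBayes with intensity trend; 2 residual and 7.74 prior degrees of freedom), two-sided, with Benjamini-Hochberg adjustment. An exact permutation test of 2 against 2 cannot go below p = 0.333. Symbols come from GEO's platform annotation, and all 42 were unchanged through gene ID in RefSeq (GRCm38.p6). Genes given array by array are those called, the 12 with the smallest p and those whose probe sets passing the filter disagree in sign. Others given so were chosen after their values were seen. The members and lists were chosen with earlier results of these data known. Alternatives changed the pseudocount, filter, scaling, probe set, variance model, replicate block and arrays used.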

Additional observations from a re-analysis of the deposited data

How the results depend on the processing

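The count of 0 proteasome genes called held under the 15 alternatives planned, except with the replicate number as a block. That block called 1 proteasome gene, Psmg2 (-0.85, adjusted p = 0.0166, limma), and 707 genes in all in place of 121. The labels do not say that a number marks a shared culture or day, but deviations of same-numbered arrays from their group means correlated across genes (r = 0.522 over 5583 genes, which are not independent replicates). Over its alternatives the adjusted p of Psmg2 lay between 0.0166 and 0.745. Genes called over the whole table were 60 with each array centred on its median and 44 without the intensity trend. Leaving out each array in turn gave 54 to 282, with 54 without anergic array 1, 72 without anergic array 2, 269 without control array 1 and 282 without control array 2. A lone array was there assumed to vary like the other group. The median of the proteasome genes then lay between -0.17 and 0.011. It was 0.047 with centring, -0.053 without the 2 genes that encode no subunit and -0.046 without marked probe sets, the last 2 being alternatives chosen after seeing the data. The sign turned for Psmb5 and Psmc3 with the mean of their probe sets (-0.016 and -0.018). Ranges with single arrays left out were drawn up for the genes that the rule above gives array by array. Among these they crossed 0 for Psmb4 (-0.51 to 0.015), Psmb5 (-0.15 to 0.31), Psmc3 (-0.13 to 0.31), Psmd12 (-0.84 to 0.014) and Psmd4 (-0.16 to 0.65). Over all alternatives other proteasome genes crossed 0 too, such as Psme3 (-0.34 to 0.87), Psmd5 (-0.31 to 0.69), Psmb3 (-0.57 to 0.19) and Psmd11 (-0.27 to 0.42). The causes were not tested.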

Other observations

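Other short motifs were looked up in the same promoters, and the ones given here were chosen after their counts were seen. The core of the Ets factor site, CCGGAA, stood in the 250 bases before the start on either strand in 17 of the 35 proteasome genes with a promoter (48.6%), against 13.6% of the 27025 genes in the table. The GC box GGGCGG was found for 20 (57.1%), against 35.4%. Of the genes that encode no subunit, Psmc3ip is counted among the 17 and Psme3ip1 among the 20. Promoters were not matched for base composition, so these shares are a description. Tested genes with CCGGAA had a median log2 difference of -0.038 (15 genes), and those without had -0.13 (17 genes), both with anergic minus control.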
